A study of Mus musculus with 6 samples.

Results

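The genes described here encode the 4 classical families of axon guidance cues and their receptors: ephrins and Eph receptors, Slits and Robo receptors, netrins with Dcc, neogenin and the Unc5 receptors, and semaphorins with plexins and neuropilins. The rule that chose them reads gene symbols alone, although it was proposed with results of these data known. It takes symbols that begin with the family name followed by the member's number or letters, plus Dcc and Neo1, without Epha2 and the Slitrk genes. The rule gave 69 genes of the 22180 that the array names by a single symbol, 36 of them ligands and 33 receptors. Unc5a to Unc5d were counted as members although a letter alone follows their family name, and Unc50, an unrelated gene whose symbol begins with the same letters, was not.

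Growing axons and migrating cells read these cues through receptors at the cell surface, which turn the cytoskeleton towards or away from the source. Ephrin-A ligands are tethered to the membrane by a lipid anchor and ephrin-B ligands span it. Slits and the classical netrins are secreted, while netrin-Gs are anchored. Semaphorins are secreted, anchored or membrane-spanning according to class, and act through plexins, often with a neuropilin as coreceptor. In the early neural tube many of the same molecules also set boundaries between regions and guide the first axons across the midline.

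The cells were mouse embryonic stem cells (ESCs) infected with a lentivirus encoding a control short hairpin RNA (shRNA) or one against Chd4 or Mbd3, which encode subunits of NuRD, a nucleosome remodeling and deacetylase complex. Day 0 cells were ESCs kept on gelatin in serum medium with leukemia inhibitory factor, and day 4 cells had been re-aggregated in low-adhesion plates in differentiation medium with serum replacement and sampled after 4 days of neural differentiation. The labels give no strain, clone or number of cultures, and all 6 groups carry a lentiviral shRNA. Each group holds 1 Mouse Gene 2.0 ST array, so a difference between 2 arrays has no replicate check and no p-value, and precision is limited by the number of arrays.

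Values are the deposited intensities on a linear scale, or differences of their log2, and a level of one gene is never set against that of another, since probes differ in brightness. Array medians ranged from 39.6 to 41.4. Where the dimmer of a pair of intensities lay under 41.4, the highest array median, the difference is given against 41.4 as "at least". As a check of the labels, Chd4 stood at 973 under control shRNA and 289.6 under its own at day 0 (29.8% of control) and at 1021 and 727 at day 4 (71.3%). Mbd3 stood at 216 and 92.8 at day 0 (43.0%) and at 183 and 138 at day 4 (75.5%), so both targets were nearer to control at day 4. All 10 ESC markers reached the floor of 41.4 in each of the 3 day-0 arrays, while 4 of 10 neural progenitor markers in control and 7 of 10 in each knockdown lay under it.

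In control cells the guidance genes were among those that differed between the days. Of the 69 members, 25 were at least 2-fold higher at day 4 (36.2%) and 2 at least 2-fold lower. Among genes whose brighter array reached its median, 8.13% were higher and 4.7% lower by that size, and without that filter 5.08% and 2.93% of all 22180 genes. The 63 members that passed the filter had a median log2 difference of 0.72, against 0.00 over the 13831 genes compared, and 48 of them were above 0. The 6 that did not pass, Epha5, Epha6, Ntng1, Plxnb3, Sema3d and Sema4f, were under 41.4 in all 6 arrays. For Sema6d and Nrp1, counted as higher, the difference against 41.4 was under 2-fold. Of the 36 ligands 14 were 2-fold higher, and of the 33 receptors 11. With all values under 41.4 set to 41.4 the median over the 69 members was 0.33 and that over all genes 0. In all, 33 members were at least 2-fold apart in at least 1 of the 7 comparisons of day or shRNA, and 36 in none. No share over all genes was computed for that pooled count, so it only tells how many members were past 2-fold.

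**Figure D1:**
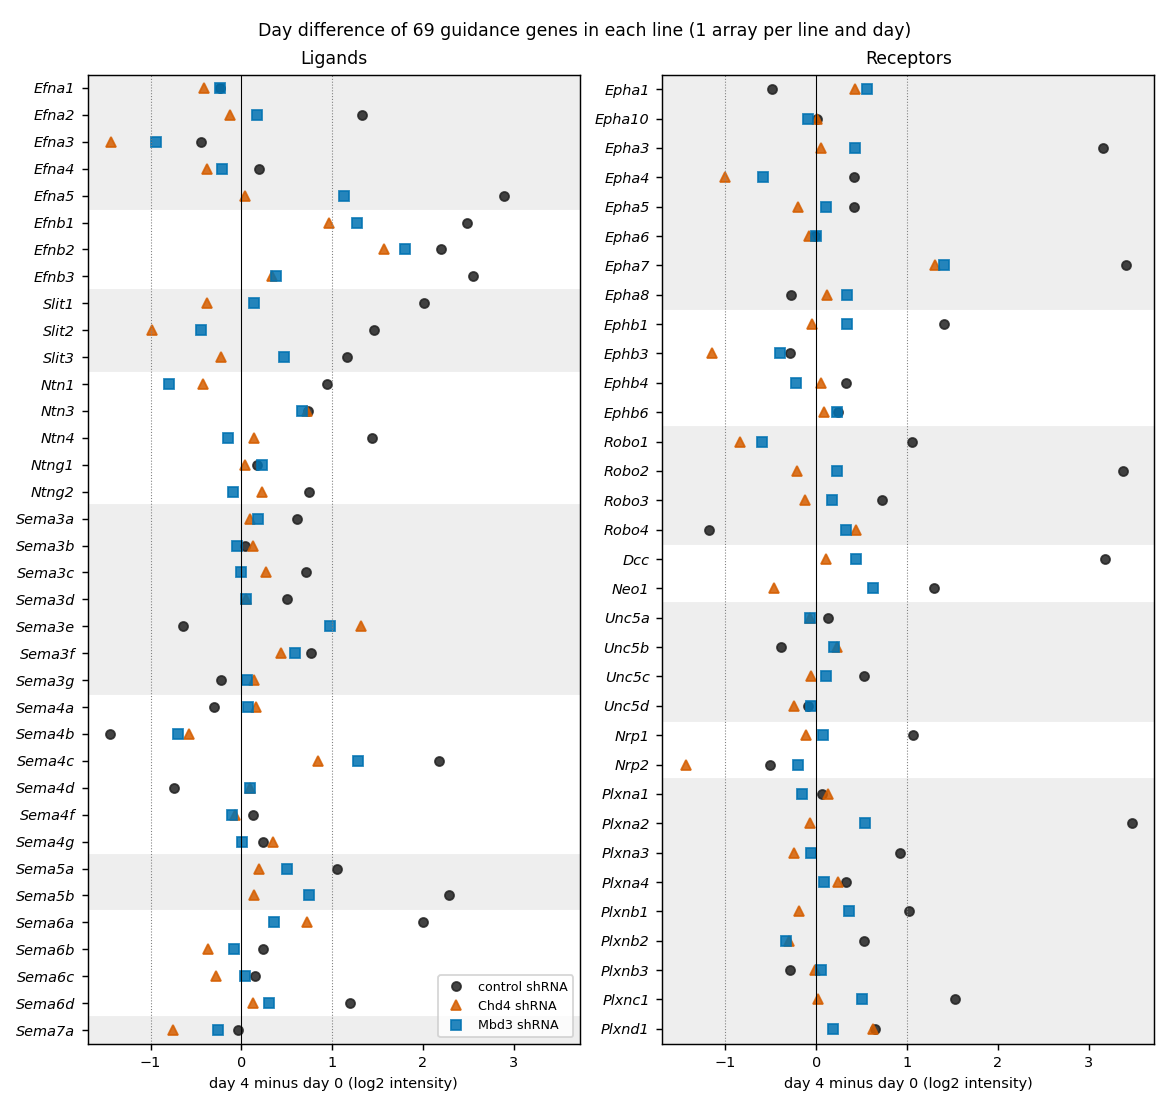
Difference between day 4 and day 0 in log2 intensity for each of the 69 members, ligands on the left and receptors on the right, grouped by family; circles are control, triangles Chd4 shRNA and squares Mbd3 shRNA, each from 1 pair of arrays, and dotted lines mark 2-fold. The control circles of 25 members lie at or beyond 1 on the right, while 3 triangles and 5 squares do.

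Promoter windows were read for sequence that the choice of members did not use. RefSeq promoter windows of 300 bases (250 before to 50 after a gene's start, assembly GRCm38.p6) were found for 59 of the 69 members, and where a gene had several the one with most CG dinucleotides was used. CG, the letters C and G in a row, reads the same on both strands and is the site of DNA methylation. It occurred at least once in all 59 member windows and in 94.6% of those of all 27025 genes in the table. The median number was 23 in the members, 15 in the 17492 protein-coding genes and 8 in all genes. It was 28 in the 21 matched members that were 2-fold higher at day 4 in control, with no window under 14, and 20.5 in the other 38, of which the lowest held 2. Among those 38 are Epha5, Epha6, Ntng1, Plxnb3, Sema3d and Sema4f, which did not pass the filter and could not count as higher. A link between CG number and day difference was not tested. The 4 members that stand for the patterns of the results are shown, with CG in capitals. Plxna2 (chr1:194619579-194619878, plus strand) and Robo2 (chr16:74411776-74412075, minus strand) were past 2-fold upwards between days in control and in neither knockdown, Efnb2 (chr8:8661193-8661492, minus strand) was higher in all 3 lines, and Sema3e (chr5:14025026-14025325, plus strand) went the opposite way in control and in the knockdowns.
Plxna2: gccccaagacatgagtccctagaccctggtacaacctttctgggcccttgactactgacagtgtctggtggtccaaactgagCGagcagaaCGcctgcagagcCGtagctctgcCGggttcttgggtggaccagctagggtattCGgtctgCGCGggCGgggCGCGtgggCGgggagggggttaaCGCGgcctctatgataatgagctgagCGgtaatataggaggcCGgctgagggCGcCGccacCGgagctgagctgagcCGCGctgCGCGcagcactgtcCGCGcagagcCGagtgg
Robo2: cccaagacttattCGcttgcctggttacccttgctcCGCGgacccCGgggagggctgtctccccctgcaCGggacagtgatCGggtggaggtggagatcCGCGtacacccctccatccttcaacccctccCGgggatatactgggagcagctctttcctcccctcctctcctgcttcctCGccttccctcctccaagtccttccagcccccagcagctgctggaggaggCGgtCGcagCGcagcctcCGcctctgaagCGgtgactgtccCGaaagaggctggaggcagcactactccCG
Efnb2: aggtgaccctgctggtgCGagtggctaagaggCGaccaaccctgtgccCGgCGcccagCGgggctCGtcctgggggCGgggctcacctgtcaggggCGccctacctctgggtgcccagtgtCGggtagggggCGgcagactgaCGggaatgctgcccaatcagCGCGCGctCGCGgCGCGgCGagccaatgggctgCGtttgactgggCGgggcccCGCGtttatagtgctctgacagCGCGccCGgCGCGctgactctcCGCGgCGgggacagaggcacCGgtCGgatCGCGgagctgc
Sema3e: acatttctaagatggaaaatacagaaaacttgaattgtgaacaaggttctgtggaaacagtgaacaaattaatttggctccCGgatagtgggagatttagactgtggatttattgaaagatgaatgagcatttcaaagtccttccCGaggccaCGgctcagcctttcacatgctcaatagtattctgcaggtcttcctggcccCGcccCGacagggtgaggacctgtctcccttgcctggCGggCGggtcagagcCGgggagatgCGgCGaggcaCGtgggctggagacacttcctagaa
These windows hold 25, 17, 35 and 11 CG in that order, and a GC content of 64.7%, 65.0%, 72.3% and 50.7%. No source used here gives the genome build behind the probe sets, so the windows locate the genes and not the probes.

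In control cells the 3 ephrin-B ligand genes were all past 2-fold upwards by day 4. Efnb2, which also marks arteries and rhombomere boundaries, had intensities of 118 at day 0 and 542 at day 4 in control cells, 109.5 and 325 with Chd4 shRNA, and 89.2 and 312 with Mbd3 shRNA. It was 4.58-fold higher at day 4 in control, 2.97-fold in the Chd4 line and 3.49-fold in the Mbd3 line, so that all 3 day-4 arrays lay above all 3 day-0 arrays. Efnb1, a ligand of craniofacial and cortical development, stood at 83.0 at day 0 and 466 at day 4 in control cells, 70.6 and 138 with Chd4 shRNA, and 99.8 and 241 with Mbd3 shRNA. Its day difference was 5.61-fold in control, 1.95-fold with Chd4 shRNA and 2.41-fold with Mbd3 shRNA, again with no overlap between days. Efnb3, a ligand at the ventral midline of the neural tube, measured 103 at day 0 and 606 at day 4 in control cells, 101 and 127 with Chd4 shRNA, and 116 and 151 with Mbd3 shRNA. Here the control day-4 array stood alone, 5.87-fold above its day 0, while the knockdown day differences were 0.33 and 0.38 on the log2 scale.

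Of the ephrin-A ligands, Efna5 and Efna2 were 2-fold higher in control. Efna5, known for mapping retinal axons, had intensities of 53.2 at day 0 and 395 at day 4 in control cells, 61.9 and 63.5 with Chd4 shRNA, and 45.8 and 101 with Mbd3 shRNA, which is 7.42-fold between days in control and 2.20-fold in the Mbd3 line, and 0.04 on the log2 scale in the Chd4 line. Efna2 stood at 216 at day 0 and 543 at day 4 in control cells, 157 and 144 with Chd4 shRNA, and 215 and 242 with Mbd3 shRNA. Efna3 went the other way in the knockdowns, with 167 at day 0 and 123 at day 4 in control cells, 195 and 71.9 with Chd4 shRNA, and 270.2 and 140.4 with Mbd3 shRNA. It was 2.71-fold lower at day 4 in the Chd4 line and 1.92-fold in the Mbd3 line, against a log2 difference of -0.45 in control. Efna1 and Efna4 stayed within 2-fold in each of the 7 comparisons.

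Among the Eph receptors, Epha3 and Epha7 were the members that differed most between days in control. Epha3, a receptor of motor and callosal axons, measured 36.6 at day 0 and 328 at day 4 in control cells, 33.6 and 34.7 with Chd4 shRNA, and 31.3 and 42.2 with Mbd3 shRNA. All 3 day-0 arrays and the Chd4 day-4 array were under 41.4, the Mbd3 day-4 array was close to it, and the control difference was at least 7.91-fold. Epha7, a receptor of the forebrain and hindbrain neuroepithelium, stood at 49.8 at day 0 and 529.7 at day 4 in control cells, 48.1 and 119 with Chd4 shRNA, and 71.9 and 191 with Mbd3 shRNA. It was 10.6-fold higher at day 4 in control, 2.48-fold in the Chd4 line and 2.65-fold in the Mbd3 line, and thus kept its direction in every line. Ephb1, which directs retinal axons at the optic chiasm, measured 39.4 at day 0 and 104 at day 4 in control cells, 34.6 and 33.4 with Chd4 shRNA, and 31.4 and 39.6 with Mbd3 shRNA, at least 2.52-fold between days in control.

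Epha4 and Ephb3 were 2-fold lower at day 4 in the Chd4 line. Epha4, a receptor for both ephrin classes, had intensities of 377 at day 0 and 503 at day 4 in control cells, 603 and 300.2 with Chd4 shRNA, and 340.4 and 227 with Mbd3 shRNA, highest at day 0 under Chd4 shRNA and 2.01-fold lower there by day 4. Ephb3 stood at 131 at day 0 and 108 at day 4 in control cells, 210.0 and 94.6 with Chd4 shRNA, and 165 and 125 with Mbd3 shRNA, 2.22-fold lower at day 4 in the Chd4 line. Epha1, Epha8, Epha10, Ephb4 and Ephb6 did not reach 2-fold in any comparison. Epha10 and Ephb6, both of which lack an active kinase, spanned 44.9 to 47.8 and 40.4 to 63.7 over the 6 arrays.

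All 3 Slit genes were 2-fold higher at day 4 in control and in neither knockdown. Slit1, a repellent of the forebrain, measured 41.6 at day 0 and 167 at day 4 in control cells, 63.0 and 48.4 with Chd4 shRNA, and 46.3 and 50.9 with Mbd3 shRNA. Slit2, a midline repellent, stood at 101 at day 0 and 278 at day 4 in control cells, 170.5 and 86.4 with Chd4 shRNA, and 126 and 92.5 with Mbd3 shRNA. Its control difference was 2.76-fold upwards, whereas the log2 difference was -0.98 in the Chd4 line and -0.44 in the Mbd3 line. Slit3 had intensities of 70.0 at day 0 and 157 at day 4 in control cells, 85.3 and 72.8 with Chd4 shRNA, and 76.7 and 106 with Mbd3 shRNA.

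Their receptors Robo1 and Robo2 were 2-fold higher at day 4 in control too. Robo2, a receptor that keeps axons away from the midline, measured 34.6 at day 0 and 360.2 at day 4 in control cells, 37.9 and 32.6 with Chd4 shRNA, and 37.4 and 43.8 with Mbd3 shRNA. Of the 6 arrays only control day 4 stood well clear of the floor, at least 8.70-fold above control day 0. Robo1 was 257 at day 0 and 535 at day 4 in control cells, 348 and 194 with Chd4 shRNA, and 404 and 268 with Mbd3 shRNA: the control value was 2.08-fold higher at day 4, and both knockdowns were lower at day 4, with log2 differences of -0.84 and -0.60. Robo3, which lets commissural axons cross, stayed within 2-fold, at 41.4 or more in control day 4 alone (48.7).

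Robo4, an endothelial Robo, ran opposite to Robo1 in each line and to Robo2 in control. It measured 82.9 at day 0 and 36.6 at day 4 in control cells, 76.4 and 103 with Chd4 shRNA, and 53.1 and 66.9 with Mbd3 shRNA. It was at least 2.00-fold lower at day 4 in control, and at least 2.49-fold higher in Chd4-knockdown than in control cells at day 4. The summed intensity of 8 endothelial markers was 702 at day 0 and 466 at day 4 in control, 1047 and 914 in the Chd4 line, and 971 and 755 in the Mbd3 line. Between days in control Cdh5 was 2-fold higher and Pecam1, which ESCs also express, 2-fold lower. Tek stood at 74.4 at day 0 and 37.8 at day 4 in control cells, 213 and 109 with Chd4 shRNA, and 155 and 107 with Mbd3 shRNA. At day 4 under Chd4 shRNA, Pecam1 and Tek were 2-fold higher than in control and Cdh5 2-fold lower, among 6 markers compared (background 5.08% higher and 6.64% lower). Under Mbd3 shRNA, where Robo4 did not reach 2-fold, Pecam1 and Tek were 2-fold higher too and 0 of 6 lower (background 3.44% and 4.89%). Already at day 0 Tek was 1.51 and 1.06 higher on the log2 scale under Chd4 and Mbd3 shRNA (background 0.692% and 0.366%). Without Pecam1 the control sum was higher at day 4 (284 and 336), with 442 and 336 in the Chd4 line and 369 and 351 in the Mbd3 line. Emcn and Esam were under 41.4 in all 6 arrays, the markers' part in the Robo4 values was not tested, and in bulk samples fewer cells of a type and less RNA per cell cannot be told apart.

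Dcc, the attractive netrin receptor, measured 29.2 at day 0 and 265 at day 4 in control cells, 27.4 and 29.6 with Chd4 shRNA, and 30.6 and 41.6 with Mbd3 shRNA. Only the control day-4 array stood well above the floor, at least 6.39-fold over day 0. Neogenin, the Dcc relative encoded by Neo1 that also binds repulsive guidance molecules, showed another pattern: 298 at day 0 and 729 at day 4 in control cells, 857 and 621 with Chd4 shRNA, and 390.4 and 603 with Mbd3 shRNA. It was 2.45-fold higher at day 4 in control, but in the Chd4 line the day-0 array was already the highest of the 6. The 4 Unc5 genes, which encode repulsive netrin receptors, reached 2-fold in no comparison. Over the 6 arrays Unc5b spanned 68.8 to 135 and Unc5c 36.1 to 55.5, and Unc5a and Unc5d varied by 1.20-fold and 1.22-fold.

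Ntn1, the floor-plate netrin, had intensities of 256 at day 0 and 494 at day 4 in control cells, 188 and 140.3 with Chd4 shRNA, and 248 and 143 with Mbd3 shRNA. It was 1.93-fold higher at day 4 in control, short of 2-fold, and lower at day 4 in both knockdowns, with log2 differences of -0.42 and -0.80. Ntn4, a netrin of basement membranes, was above 41.4 only in control day 4, at 83.2, and the other 5 arrays ranged from 30.7 to 37.2. Ntn3 differed alike in all lines, with 39.6 at day 0 and 65.7 at day 4 in control cells, 38.9 and 64.0 with Chd4 shRNA, and 37.1 and 59.1 with Mbd3 shRNA, a day difference of at least 0.67, 0.63 and 0.51 on the log2 scale. Ntng2, a membrane-anchored netrin-G that does not bind Dcc, ranged from 28.0 to 46.9.

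**Figure D2:**
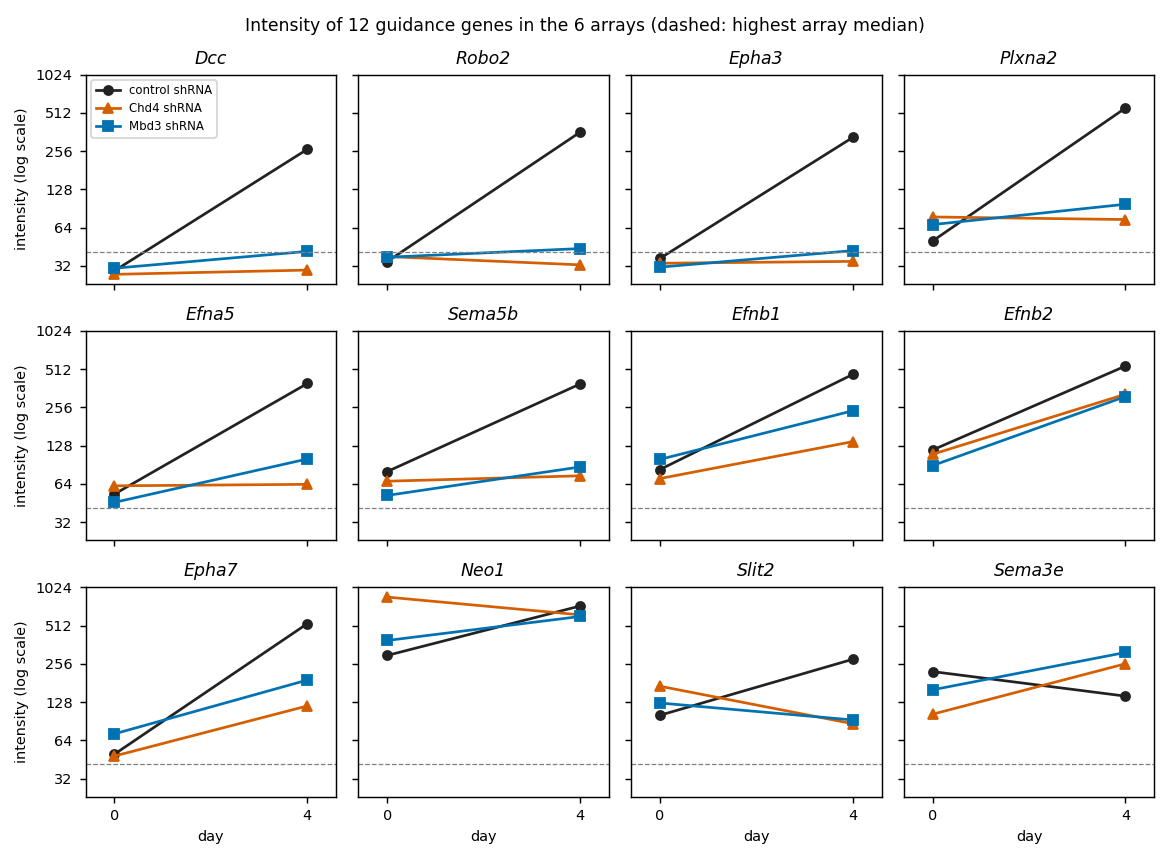
Intensity on a log scale at day 0 and day 4 for 12 members, 1 panel each, with control as circles, Chd4 shRNA as triangles and Mbd3 shRNA as squares (1 array per point; lines join the days, and the dashed line is the highest array median, 41.4). Dcc, Robo2 and Epha3 leave the dashed line clearly only in control, and Efnb2 is higher at day 4 in all 3 lines. In Slit2 and Sema3e both knockdowns slope opposite to control.

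Semaphorins are taken by class. In class 3, the secreted semaphorins, 0 of 7 members were 2-fold higher or lower between days in control. Sema3e, which binds plexin D1 without a neuropilin, was the one class 3 member past 2-fold in another comparison, with 222 at day 0 and 142 at day 4 in control cells, 103 and 256 with Chd4 shRNA, and 159.7 and 314 with Mbd3 shRNA. The control value was lower at day 4, by a log2 difference of -0.64, and the knockdown values higher, by 1.32 and 0.98. Sema3f and Sema3c were higher at day 4 in control by 0.77 and 0.72, Sema3a reached 41.4 only in control day 4 (44.5), and Sema3b and Sema3g stayed between 44.8 and 60.7 in all arrays.

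In class 4, membrane-spanning ligands of plexin B receptors, Sema4c and Sema4b differed in opposite directions. Sema4c measured 55.3 at day 0 and 249 at day 4 in control cells, 60.3 and 109 with Chd4 shRNA, and 55.5 and 135 with Mbd3 shRNA and was higher at day 4 in every line, by log2 differences of 2.17 in control and 0.85 and 1.28 in the Chd4 and Mbd3 lines. Sema4b stood at 528 at day 0 and 194 at day 4 in control cells, 535 and 358 with Chd4 shRNA, and 553 and 340.0 with Mbd3 shRNA, lower at day 4 in every line, by 2.73-fold in control, and by log2 differences of -0.58 with Chd4 shRNA and -0.70 with Mbd3 shRNA. Sema4d, known from lymphocytes and as the ligand of plexin B1, was 151 at day 0 and 90.6 at day 4 in control cells, 158 and 169 with Chd4 shRNA, and 161 and 171 with Mbd3 shRNA: the control day-4 array was the lowest of the 6. Sema4a and Sema4g stayed within 2-fold.

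Both class 5 members were 2-fold higher in control. Sema5b measured 80.0 at day 0 and 391 at day 4 in control cells, 67.2 and 74.2 with Chd4 shRNA, and 52.0 and 87.1 with Mbd3 shRNA, 4.89-fold between days in control, and Sema5a stood at 43.0 and 89.2 in control and between 37.7 and 53.4 in the knockdown arrays. Class 6 members span the membrane and signal through plexins. Of them, Sema6a stood at 77.9 at day 0 and 312 at day 4 in control cells, 60.9 and 100.2 with Chd4 shRNA, and 92.1 and 118 with Mbd3 shRNA. It was 4.01-fold higher at day 4 in control. Sema6d reached 41.4 only in control day 4, at 82.1, at least 1.98-fold over day 0. Sema6b and Sema6c stayed within 2-fold, as did Sema7a, a lipid-anchored ligand of plexin C1 and integrins, which was highest under Chd4 shRNA at day 0 (119.9, with 64.6 to 77.1 in the other arrays).

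Of the receptors for semaphorins, Plxna2 differed most between days. Plexin A2 is a receptor for class 3 and class 6 semaphorins, and its gene measured 50.1 at day 0 and 558 at day 4 in control cells, 77.6 and 74.0 with Chd4 shRNA, and 67.6 and 97.7 with Mbd3 shRNA. It was 11.1-fold higher at day 4 in control, and the day differences in the Chd4 and Mbd3 lines were -0.07 and 0.53 on the log2 scale. Plxnc1, the receptor of Sema7a, had intensities of 47.2 at day 0 and 136 at day 4 in control cells, 42.1 and 42.8 with Chd4 shRNA, and 38.6 and 54.9 with Mbd3 shRNA, and Plxnb1 87.3 at day 0 and 178 at day 4 in control cells, 122 and 107 with Chd4 shRNA, and 99.8 and 128 with Mbd3 shRNA. Plxna3 lay just short of 2-fold in control, with a log2 difference of 0.93. Plxna1 was flat, between 420.1 and 526 in all arrays, and Plxna4, Plxnb2 and Plxnd1 stayed within 2-fold. The neuropilin genes, coreceptors of class 3 semaphorins, parted: Nrp1 was above 41.4 only in control day 4 (69.9), while Nrp2 measured 180.2 at day 0 and 127 at day 4 in control cells, 235 and 87.4 with Chd4 shRNA, and 189.7 and 165 with Mbd3 shRNA, 2.69-fold lower at day 4 in the Chd4 line.

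The knockdown lines share no array with the control pair, so the 25 members that were 2-fold higher at day 4 in control could be followed there. Their median log2 difference was 2.00 in control, which chose them, 0.04 in the Chd4 line and 0.43 in the Mbd3 line (0 and 0.36 with values under 41.4 raised to it). In the Chd4 line 14 of the 25 were higher at day 4, 2 of them by 2-fold (Efnb2 and Epha7), and in the Mbd3 line 22, of them 5 by 2-fold (Efnb2, Epha7, Sema4c, Efnb1 and Efna5). All 1125 genes chosen in the same way had medians of 1.45, 0.16 and 0.39, and 67.2% and 87.9% of them were higher at day 4 in the Chd4 and Mbd3 lines, 5.51% and 12.3% by 2-fold.

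Over all members, 3 were 2-fold higher at day 4 in the Chd4 line (Efnb2, Sema3e and Epha7; background 1.7%) and 4 lower (Efna3, Nrp2, Ephb3 and Epha4; background 1.16%), among 52 compared. In the Mbd3 line 5 of 54 were higher (background 1.6%) and 0 lower (background 1.1%). The member medians were 0.05 and 0.15, against -0.01 and -0.03 over all genes compared. With 16 subtracted from each intensity, in case the submitters' software had added that constant, 6 members were higher in the Chd4 line (3.01% of genes).

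Knockdown and control arrays were also set against each other at each day, to ask how knockdown of a NuRD subunit compares before and after differentiation. At day 0 the members differed little. Neo1 was 2.88-fold higher and Sema3e 2.17-fold lower under Chd4 shRNA, 1 member in each direction among 51 compared (background 0.692% higher and 0.565% lower). Next came Slit2 at 0.76, Sema7a at 0.70, Epha4 and Ephb3 at 0.68 each, and Plxna2 at 0.63. Under Mbd3 shRNA 0 of 51 members reached 2-fold in either direction (background 0.366% and 0.314%), and the ends of the range were Efna3 at 0.69 and Robo4 at -0.64. The member medians were 0.04 and 0.06, against -0.01 and 0.00 over all genes. Neo1 was also 2.19-fold higher in the Chd4 than in the Mbd3 line at day 0, the 1 member past 2-fold of 48 compared (background 0.586% higher and 0.466% lower).

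At day 4 many members were lower in the knockdowns. Under Chd4 shRNA 21 of 63 members compared were 2-fold lower than in control and 1, Robo4, higher (background 6.64% lower and 5.08% higher). Under Mbd3 shRNA 18 of 63 were lower and 1, Sema3e, higher (background 4.89% and 3.44%). Both comparisons use the same control array, which also enters the day difference of control. The 17 members that were 2-fold lower in both therefore do not count as separate evidence. No share over all genes was computed for that count. The member medians were -0.60 and -0.51, against -0.04 and -0.06 over all genes compared, and -0.35 and -0.36 against 0 with values under 41.4 raised to it. With 16 subtracted, 4 members were higher in each knockdown (7.11% of genes under Chd4 and 5.02% under Mbd3 shRNA).

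Guidance receptors were among the lowest. Counted by role, 13 of 33 ligands and 8 of 30 receptors compared were 2-fold lower under Chd4 shRNA (background 6.64%). Under Mbd3 shRNA 10 of 33 ligands and 8 of 30 receptors were (background 4.89%). Robo2 was at least 8.70-fold lower under Chd4 shRNA and 8.23-fold lower under Mbd3 shRNA, Epha3 at least 7.91-fold and 7.77-fold, Dcc at least 6.39-fold and 6.36-fold, and Plxna2 7.54-fold and 5.71-fold. Of the ligands, Efna5 was 6.21-fold and 3.92-fold lower, Sema5b 5.28-fold and 4.49-fold, and Efnb3 4.77-fold and 4.00-fold. Ntn1 was 3.52-fold and 3.46-fold lower. Efna2, Slit1, Efnb1, Slit2, Sema6a and Epha7 were 3.12-fold to 4.44-fold lower under Chd4 shRNA and 1.93-fold to 3.29-fold lower under Mbd3 shRNA. Epha4 was 2-fold lower under Mbd3 shRNA only, at -1.15 against -0.74, a difference that was not tested. Robo1 under Mbd3 shRNA, at 268 against 535, lay just short of the 2-fold mark.

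**Figure D3:**
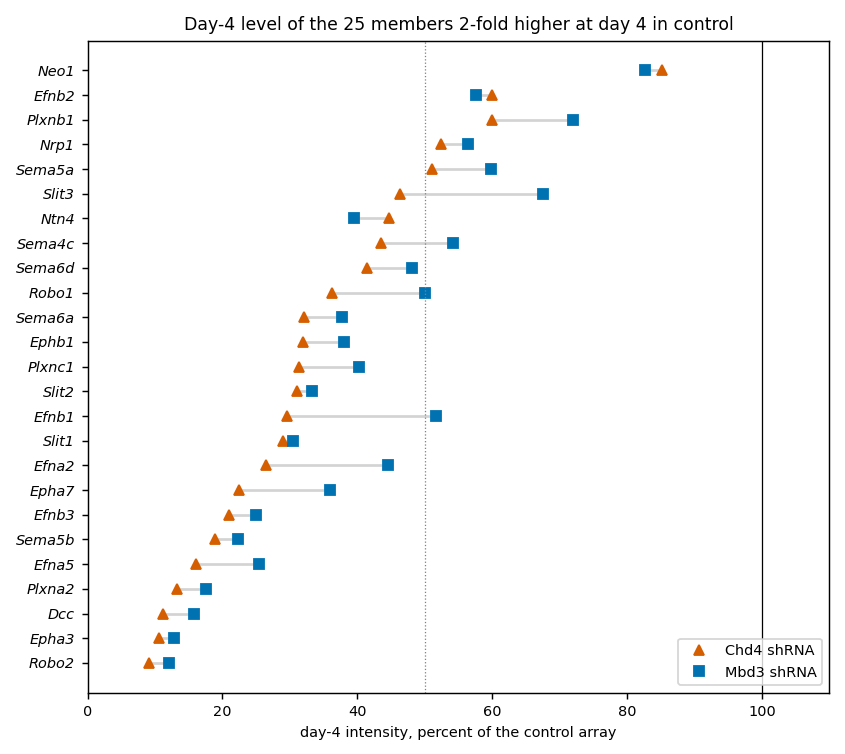
Day-4 intensity in the Chd4 (triangles) and Mbd3 (squares) knockdown as a percentage of the control array on a linear axis, for the 25 members at or past 2-fold upwards between days in control, sorted by the Chd4 value; the solid line is control and the dotted line 50%. Values run from 9.04% (Robo2) to 85.2% (Neo1) under Chd4 shRNA and from 12.1% to 82.7% under Mbd3 shRNA, and the square lies right of the triangle for 22 of the 25.

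The 25 members that were higher in control stood at a median of 31.3% of control under Chd4 shRNA and 39.5% under Mbd3 shRNA at day 4. Choosing them on a high control day-4 value favours such low percentages, and for genes under 41.4 in a knockdown array, such as Robo2 and Dcc in the Chd4 line, the percentage is only a dim reading. The level under Mbd3 shRNA was above that under Chd4 shRNA for 22 of the 25, all but Efnb2, Neo1 and Ntn4, against 81.5% of the 1125 genes chosen alike. In Ephb1, Nrp1, Ntn4 and Sema6d both knockdown arrays lay under 41.4, and without these it was 19 of 21. Set directly against each other at day 4, the knockdowns differed by 2-fold at 0 of 56 members in either direction (background 0.923% higher and 0.18% lower in Chd4). Efna3 at -0.96 and Nrp2 at -0.92 were lowest in the Chd4 line relative to the Mbd3 line, and Robo4 at 0.63 highest.

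Markers of cell type differed along with the members. The summed intensity of 10 neural progenitor markers, among them Sox1 and Nes, was 510.2 at day 0 and 5736 at day 4 in control, 418 and 813 in the Chd4 line, and 439 and 1226 in the Mbd3 line. That of 10 ESC markers was 9537 and 2321 in control, 9562 and 6446 in the Chd4 line, and 9372 and 6071 in the Mbd3 line. That of 10 markers of postmitotic neurons was 2258 and 3202 in control, 2254 and 1629.9 in the Chd4 line, and 1387 and 1398 in the Mbd3 line. Stmn2, the gene that carried most of that sum at day 0, was lower at day 4 in every line (-0.39, -0.62 and -0.56 on the log2 scale), and without it the sums were 741 and 2045, 862 and 726, and 626 and 881. Of the 9 neuron markers compared in control, 8 were 2-fold higher at day 4 (median 1.46, background 8.13%). Dcx, Nhlh1, Elavl4 and Nefm were under 41.4 in every array but control day 4, and Neurod1 in all 6. The part of cell composition in the values of the guidance genes was not tested.

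Other genes of the same pathways were examined as 2 lists. Of 31 further ligands and coreceptors, 6 were 2-fold higher and 1 lower at day 4 in control (median 0.60 over the 27 compared; background 8.13% and 4.7%). Boc, which helps netrin and hedgehog signals, stood at 48.1 and 254, Draxin, a netrin antagonist, at 48.1 and 240.0, and the adhesion molecule gene Nrcam at 43.6 and 296. Rgmb, a ligand of neogenin, had 77.7 and 341. At day 4 these stood at 49.8, 51.2, 48.3 and 69.1 under Chd4 shRNA and at 68.4, 67.8, 70.6 and 114 under Mbd3 shRNA. The neurotrophin receptor gene Ngfr was the 1 lower. Between days, 0 of 24 compared reached 2-fold upwards in the Chd4 line and 1 of 25 in the Mbd3 line (background 1.7% and 1.6%). At day 4, 8 of 26 and 6 of 26 were 2-fold lower than in control under Chd4 and Mbd3 shRNA (background 6.64% and 4.89%).

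Of 50 cytoplasmic transducers, 12 were 2-fold higher and 0 lower at day 4 in control (median 0.27 over 47; background 8.13% and 4.7%). Dpysl2, a collapsin response mediator that semaphorin signals act on, measured 245 at day 0 and 2523 at day 4 in control cells, 208 and 285 with Chd4 shRNA, and 198 and 575 with Mbd3 shRNA. Dpysl5, of the same family, stood at 142 at day 0 and 951 at day 4 in control cells, 200 and 157 with Chd4 shRNA, and 147 and 232 with Mbd3 shRNA. Srgap3, a partner of Robo receptors, stood at 60.7 and 383 in control, 117 and 133 with Chd4 shRNA, and 77.5 and 124 with Mbd3 shRNA. Between days, 1 of 46 compared was 2-fold higher in the Chd4 line and 2 of 45 in the Mbd3 line (background 1.7% and 1.6%). At day 4, 7 and 6 of 48 were 2-fold lower under Chd4 and Mbd3 shRNA (background 6.64% and 4.89%) and 0 higher (5.08% and 3.44%). At day 0, Farp1, an exchange factor downstream of plexins, and Ablim1, an actin-binding protein, were 1.38 and 1.02 higher on the log2 scale under Chd4 shRNA, 2 of 44 compared (background 0.692%).

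An additive limma fit of shRNA and day to all 6 arrays left 2 residual degrees of freedom, in which any departure from equal day effects counts as error, and its p-values measure only the spread between these arrays. It called 0 of 57 members and 0 of 12926 genes between days at an adjusted p under 0.05 (background 0%). An unadjusted p under 0.05 was found for 13 of the 57 members (9 of them higher) and 1962 genes (15.2%). The smallest member value was that of Efnb2, with an effect of 1.86 ± 0.16 (SE), an adjusted p = 0.098 and a higher day-4 value in 3 of 3 lines. For Chd4 and Mbd3 shRNA the fit called 0 members and 0 genes too (background 0%). Unadjusted p-values under 0.05 were found for 4 and 5 of 57 members, beside 1014 and 647 genes (7.84% and 5.01%). Fitted to the 4 knockdown arrays alone, limma took the lines as replicates of each other, with 1 residual degree of freedom. The lines target different genes and hold 1 array per day, so its calls measure no spread between cultures of a line. This fit called 10 of 57 members between days (background 5.28%), which only describes differences that the 2 lines shared. The 57 members and 12926 genes were those of the fit to all 6 arrays, chosen by a mean that included the control arrays. Dcc, for one, was among them with 27.4 to 41.6 in the knockdown arrays and 265 in control day 4. Neither the 57 nor the background is therefore a set chosen on the knockdown arrays alone. The mean day difference over the 2 lines was 1.69 for Efnb2, 1.36 for Epha7, 1.15 for Sema3e and -1.19 for Efna3 on the log2 scale. Of the 10, Efnb2, Epha7, Sema3e, Efnb1, Sema4c and Ntn3 were higher at day 4 in both lines, and Efna3, Epha4, Robo1 and Sema4b lower.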

How the data were processed

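Per the series design text the arrays were analysed in GeneSpring GX 12.6.1, and the submitters' processing notes name RMA (background subtraction, quantile normalization and probe set summary), with no version. The authors deposited intensities on a linear scale, from 17.4 to 7980 over 34351 probe sets. The lowest being above 17, a constant of 16 may have been added. No source used here states one, and 16 was subtracted in an alternative.

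Log2 of the deposited intensities was taken without further scaling. Probe sets with 1 gene symbol (23521; 1814 had several, 9016 none) gave 22180 genes, the probe set of highest mean standing for each. Symbols were updated through RefSeq GRCm38.p6; no member's changed. A gene entered a comparison where the brighter array reached its own median, and log2 differences of 1 or more in size (2-fold) were counted. Every member past 2-fold in at least 1 of 7 comparisons was named. The comparison of the knockdowns with each other was added after seeing the data. The rule, members and lists were chosen with earlier results of these data known. limma 3.58.1 in R 4.3.3 fitted shRNA and day to genes whose mean reached the median over probe sets, two-sided with Benjamini-Hochberg adjustment, and was tested on simulated data. Python 3.11.15, numpy 2.4.6 and pandas 2.3.3 were used. No label tells whether an array is 1 culture or a pool.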

Additional observations from a re-analysis of the deposited data

Results flagged for a closer look

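Members whose day difference was at least 1.5-fold in control and at least 1.5-fold in the opposite direction in a knockdown line were picked out, and none of these differences between lines was tested. Slit2 differed by 1.46 in control and -0.98 in the Chd4 line on the log2 scale, -2.44 between the lines. Robo1 differed by 1.06 in control, -0.84 in the Chd4 line and -0.60 in the Mbd3 line, which is -1.90 and -1.65 relative to control. Ntn1 differed by 0.95 in control and -0.80 in the Mbd3 line, or -1.75 between them. Sema3e was the one among those picked out that was lower in control (-0.64) and higher in the knockdowns (1.32 and 0.98), or 1.96 and 1.62 relative to control.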

How the results depend on the processing

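Of 157 recomputed values 143 kept their size (counts within 1.5 times, medians within 0.1) and 14 moved. A reversal was a change of sign, which counts and medians of 0 could not show, and 0 were found. With 16 subtracted, member medians were 0.99 between days in control, and -0.77 and -0.65 for Chd4 and Mbd3 shRNA at day 4. The counts that moved were 6 members 2-fold higher and 1 lower between days in the Chd4 and Mbd3 lines (3.01% and 1.94% of genes), and 4 members 2-fold higher in each knockdown at day 4. Without the filter the control median was 0.53. Raising values under 41.4 to that floor gave medians of 0.33 in control and 0 in the Mbd3 line between days, and -0.35 and -0.36 for Chd4 and Mbd3 shRNA at day 4. Without the Unc5 genes the Chd4 day-4 median was -0.74. The fit to the knockdown arrays alone, which took lines with different shRNAs as replicates, gave 10 members called between days, among genes chosen with the control arrays included. The causes were not tested, beyond fewer or dimmer genes entering by construction. Centring arrays, averaging probe sets and reading the rule by its letters (Unc50 in, Unc5a to Unc5d out; chosen after seeing the data) moved no count past 1.5 times. The labels number no replicates, so nothing pairs samples beyond the line itself, which the additive fit already takes as a block for the day effect. Signals near the array median limit Dcc, Robo2 and Epha3 to bounds.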

Other observations

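Markers of further cell types were read in the same arrays. Of 8 neural crest markers, 5 were compared between days in control (background 8.13% higher and 4.7% lower). At day 4, 1 was 2-fold higher (Pax3, from 48.9 to 237) and 2 lower, Erbb3 and Foxd3. Against control, Foxd3 was lower at day 0 under Chd4 and Mbd3 shRNA (-1.14 and -1.40 on the log2 scale). At day 4 Erbb3 was higher (1.77 and 1.89) and Pax3 lower (-2.28 and -1.53). The summed intensity ranged from 522 to 691 over the 6 arrays, with Tfap2a under 41.4 in all. Of 8 mesenchyme markers 0 were 2-fold apart in any comparison (sums of 331 to 420.2, with Col3a1, Dcn and Lum under 41.4 in all arrays). Of 8 endoderm markers, 6 were compared between days in control, and 1 was 2-fold higher (background 8.13%). It was Cxcr4, a chemokine receptor that neural progenitors also express, from 91.6 to 802, with 123 and 162 at day 4 in the Chd4 and Mbd3 lines. The endoderm sums were 436 and 1259 in control, 530.2 and 669.7 in the Chd4 line and 460.1 and 656 in the Mbd3 line. Cxcr4 carried most of the control difference. Dab2 stood at 87.8 and 137 in control, 118 and 236 in the Chd4 line, and 98.6 and 219 in the Mbd3 line. At day 4 Gata6 was 64.4 under Chd4 shRNA and 29.0 in control, a log2 difference of at least 0.64. Cer1 was under 41.4 in all arrays.

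For 3 members a second probe set exists. That of Plxna1 was as flat as the one used (98.6 to 110.7). The second probe sets of Ephb1 (34.2 to 38.1) and Plxnb1 (34.9 to 41.3) stayed under 41.4 in all arrays and did not show the control day difference of the probe sets used, which was 1.41 and 1.03 on the log2 scale.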
